A study of Mus musculus with 18 samples.

Results

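The change between 4 h and 18 h of IL-4 was followed in bone marrow-derived macrophages of Irf4-/- mice, which carry no intact copy of the gene for the transcription factor IRF4. The 6 arrays compared are those whose titles name the Irf4-/- genotype with 4 h or 18 h of IL-4, 3 of each, out of 18 arrays in the series. Each 18 h array was set against the 4 h array with the same letter (A, B or C), taken as 1 independent experiment with littermates. The aim was to separate IL-4 genes whose change was transient, sustained or delayed in cells without IRF4.

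IL-4 binds a receptor whose alpha chain is encoded by Il4ra, and Janus kinases on that receptor phosphorylate the transcription factor STAT6. STAT6 and factors induced by it, IRF4 among them, drive alternative activation, a macrophage state known for the secreted protein RELM alpha (gene Retnla), the enzyme arginase 1 (Arg1) and lectin receptors such as the mannose receptor (Mrc1). Proteins of the SOCS family, which STAT factors induce, feed back on the same kinases.

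All mice had the C57BL6/J background, were 8 to 12 weeks old and included males and females. Marrow cells of several animals were pooled per experiment and grown into macrophages with human recombinant CSF1 at 200 ng/ml, and CSF1 was present in every group. The Irf4-/- groups were mock (18 h without IL-4), IL-4 at 10 ng/ml for 4 h, and IL-4 at 10 ng/ml for 18 h, with 3 arrays each. The same 3 conditions in Irf4+/- littermates, 3 arrays each, gave the control genotype, which is heterozygous and not wild type. There is no 4 h mock, so time in culture and time in IL-4 cannot be told apart between 4 h and 18 h, nor between 4 h and the 18 h mock, on which every class described here rests. Only 18 h against mock is matched in time. The arrays measured RNA of whole cultures, in which fewer cells of a type and less RNA per cell cannot be told apart.

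Levels are log2 intensity minus the 75th percentile of the array, so 0 is the brightness of the probe at that percentile, and they are compared within a gene only. Between 63.4% and 74.4% of the 43379 spots per array were well above background. In Irf4-/- cells the 4 h and 18 h arrays of a letter lay on 1 slide, so the difference within a letter is also the difference within a slide. The Irf4-/- mock array of C lay on another slide than its IL-4 arrays. In Irf4+/- cells the 18 h array of C lay on another slide than the mock and 4 h arrays of C. The Irf4+/- change of C, and with it the genotype difference, therefore crosses slides. Macrophage markers were present in every group: all 16 listed ones were measured, and their summed linear level, in units of the 75th percentile, was 1122 to 1865 at 4 h and 1076 to 1950 at 18 h. Whether the Irf4 probe lies in the deleted stretch is not stated in the labels. Its level was 1.72 ± 0.33 (SD, n = 3) at 4 h and 1.52 ± 0.54 (SD, n = 3) at 18 h, which checks nothing about the genotype.

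Among 15425 genes tested, 3161 (20.5%) differed between 18 h and 4 h at an adjusted p under 0.05, the threshold for every call given here. Of these, 1838 (11.9% of genes tested) were higher and 1323 (8.58%) were lower at 18 h. The median change of all genes was 0.053 on the log2 scale. Changes of at least 2-fold were called for 241 genes upward (1.56%) and 235 downward (1.52%). Rises made up 58.1% of calls, but 48.5% when arrays were centred on their median. Every 18 h array lay above every 4 h array for 1240 genes (8.05%) and below for 791 (5.13%). The test used differences within a letter, and without that pairing 88 genes were called, 51 higher and 37 lower. Arrays of the same letter deviated together from their group means (correlations of 0.63 to 0.84 over the Irf4-/- arrays). Without the 4 h array of C the counts were 864 higher and 603 lower, and without the 4 h array of A they were 1038 and 632. Without that of B they were 1319 and 1102. Without the 18 h array of A, B or C they were 1307 and 812, 1059 and 937, and 1078 and 732. Counts of list members called with 1 array left out, given further on, stand beside these lower totals. A drop in a list is therefore not particular to that list.

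Genes were sorted by their change from mock at 4 h and by what followed up to 18 h. The 3 contrasts share arrays, so the class sizes describe the rule and carry no test. A 4 h change had to be called and at least 2-fold, and 521 rises and 472 falls met this. Against mock, 35.2% of genes were called at 4 h and 36.8% at 18 h. Of the 521 rises, 60 were transient (called lower at 18 h than at 4 h and no longer called above mock), and 126 were partly reversed (called lower but still above mock). Another 215 were sustained (no call between 4 h and 18 h, and at least 2-fold above mock at 18 h). A further 36 were reinforced (called higher at 18 h than at 4 h), and 84 met none of these. Delayed rises, which were not called and under 2-fold at 4 h but at least 2-fold above mock and called above 4 h at 18 h, numbered 94. The mirror classes of falls held 82 transient, 94 partly reversed, 163 sustained, 44 reinforced and 89 other genes, and 110 delayed falls. At the 2-fold limit for 4 h rises, Irx1 lay just inside at 1.0019 and Ears2 just outside at 0.9998. Some 4 h rises were well above background on all 3 Irf4-/- arrays at 4 h but on fewer at mock and at 18 h. These were 2 transient, 5 partly reversed and 3 sustained genes and 5 of the other 84. The Irf4+/- groups, through which a gene could also enter the table, were not part of this count.

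**Figure D1:**
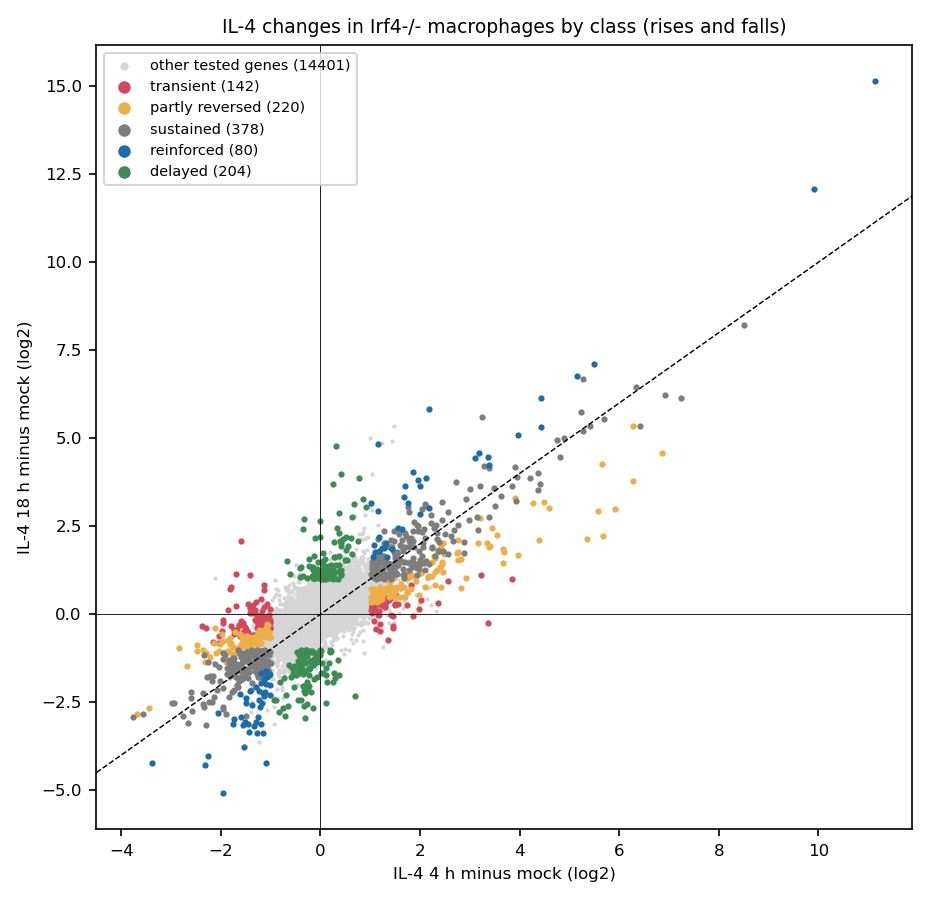
Change from mock at 4 h (x axis, log2) and at 18 h (y axis, log2) of each gene tested in Irf4-/- macrophages, coloured by class with rises and falls pooled; the dashed line marks equal change at both times. Most of the 142 transient genes lie nearer to 0 on the y axis than on the x axis (medians at 18 h of 0.26 for rises and -0.23 for falls), with exceptions such as Fzd1 at 2.08. The 378 sustained genes lie along the dashed line and the 204 delayed genes within 1 of 0 on the x axis; Retnla and Arg1 are the uppermost points.

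The guanine nucleotide exchange factor gene Kalrn had the largest fall of all called genes and was the first of the transient rises. Its level was -5.45, -6.81 and -6.46 in mock, -2.58, -4.02 and -2.03 at 4 h, and -6.07, -6.51 and -6.85 at 18 h. All 4 h arrays lay above all mock and 18 h arrays, and the mock and 18 h arrays overlapped. The fall from 4 h to 18 h was -3.60 ± 0.36 (log2, SE of the fit over 3 pairs; adjusted p = 2.54e-04), or 12.1-fold. The SE is the same for the changes at 4 h and 18 h from mock, save for genes with a missing array, and is given once per gene.

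The receptor itself was in this class. Il4ra had levels of 2.34, 2.59 and 2.67 in mock, 3.54, 3.61 and 4.86 at 4 h, and 1.70, 2.28 and 2.66 at 18 h. It rose by 1.47 ± 0.23 at 4 h and fell by 1.79 from 4 h to 18 h (adjusted p = 9.13e-04), with no overlap between 4 h and 18 h and with overlap between mock and 18 h. Tcf7l2, a transcription factor of the Wnt pathway, went from 2.10, 1.22 and 2.68 at 4 h to 0.01, -0.03 and 0.28 at 18 h, a fall of 1.92 ± 0.23 (adjusted p = 5.90e-04). That 18 h level was the mock level of 0.08, 0.12 and 0.19 within -0.05 ± 0.23. Nkd2, an inhibitor of Wnt signalling, was well above background at 4 h but on no mock or 18 h array, and fell at least 4.26-fold (-2.84 ± 0.51, adjusted p = 0.00406).

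Among the other transient rises, Ankrd6 fell by 2.04 ± 0.21 (-0.90 on its other probe) and Nxpe3 by 2.09 ± 0.23. Id1, an inhibitor of basic helix-loop-helix factors, fell by 1.84 ± 0.28 (adjusted p = 0.00181). Cdkn2b, which encodes the cell cycle inhibitor p15, fell by 1.60 ± 0.35 (adjusted p = 0.0106), and its call was lost without the A array of either time or the 4 h array of C, with changes of -2.04 to -1.23 when single arrays were left out. Socs2, a feedback inhibitor of JAK-STAT signalling, went from -0.78, -2.80 and -0.45 at 4 h to -2.74, -4.75 and -2.90 at 18 h. At 18 h it was still 1.12 above mock, a difference that was not called. The 2 times overlapped through experiment B, yet every pair fell (-2.12 ± 0.48, adjusted p = 0.0129; -0.76 on its other probe). Its call was lost without the 4 h array of C or the 18 h array of A or B.

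Partly reversed rises kept a lead over mock at 18 h. Gata3, the master transcription factor of type 2 helper T cells, was at -4.36, -8.25 and -7.81 in mock, 0.75, -3.34 and -0.80 at 4 h and -2.39, -6.95 and -4.46 at 18 h. The experiments lay far apart, with A highest at each time, but each fell: the change was -3.47 ± 0.52 (adjusted p = 0.00170), 11.1-fold, and left Gata3 2.21 above mock. Serpina3f and Serpina3g, neighbouring serine protease inhibitor genes of similar sequence, fell by 3.21 ± 0.40 and 2.64 ± 0.37 from rises of 5.35 and 5.57. Wdr86 fell by 2.93 ± 0.49, the dopamine receptor gene Drd4 by 2.49 ± 0.57, and Ffar2, a receptor for short-chain fatty acids, by 2.28 ± 0.29. For Drd4 the call was lost without the 4 h array of C or the 18 h array of A or B.

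Socs1, an inhibitor of JAK kinases, was also in this class. Its level was 0.68, 0.45 and 0.53 in mock, 6.65, 5.00 and 6.96 at 4 h and 5.18, 3.66 and 5.62 at 18 h. The fall of 1.38 ± 0.38 (adjusted p = 0.0276), seen in 3 of 3 pairs, left it 4.27 above mock, and the times overlapped. The Socs1 call was lost without the A array of either time, the 4 h array of C or the 18 h array of B. Socs5 fell by 0.96 ± 0.16 (adjusted p = 0.00291). Cdh1, encoding E-cadherin, fell by 0.94 ± 0.26 (adjusted p = 0.0288) from a rise of 6.28 and lost its call without any 1 of the 4 h arrays or without the 18 h array of B. The costimulatory receptor gene Cd40 fell by 1.45 ± 0.15 (adjusted p = 3.27e-04).

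Sustained rises included several of the strongest IL-4 genes. Msx3, a homeobox gene, was at -6.97, -8.44 and -8.50 in mock, 0.35, 0.30 and 0.95 at 4 h and 0.51, -0.32 and 0.58 at 18 h. The 4 h and 18 h arrays overlapped and differed by -0.27 ± 0.49 (adjusted p = 0.739). As no mock array was well above background, its rise was at least 149-fold at 4 h and at least 123-fold at 18 h. Pdcd1lg2, the gene of the checkpoint ligand PD-L2, stood 6.91 above mock at 4 h and 6.24 at 18 h, with a difference of -0.67 ± 0.52 (adjusted p = 0.404).

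The remaining sustained rises differed in how well a change could be seen. Mboat2 (0.14 ± 0.45), Tmem26 (-0.15 ± 0.42), the chemokine gene Ccl24 (-0.35 ± 0.63), the zinc finger gene Egr2 (0.28 ± 0.25) and Irf4 itself (-0.20 ± 0.28) were not called between 4 h and 18 h. For Cish, a SOCS relative, the value was -1.09 ± 0.81 (adjusted p = 0.379), and for Edn1, encoding endothelin 1, -1.05 ± 0.84 (adjusted p = 0.414), and in both genes 3 of 3 pairs were lower at 18 h. These errors leave room for a fall of the size seen for Socs1. Of the 215 sustained rises, 205 changed by less than 2-fold between the times.

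**Figure D2:**
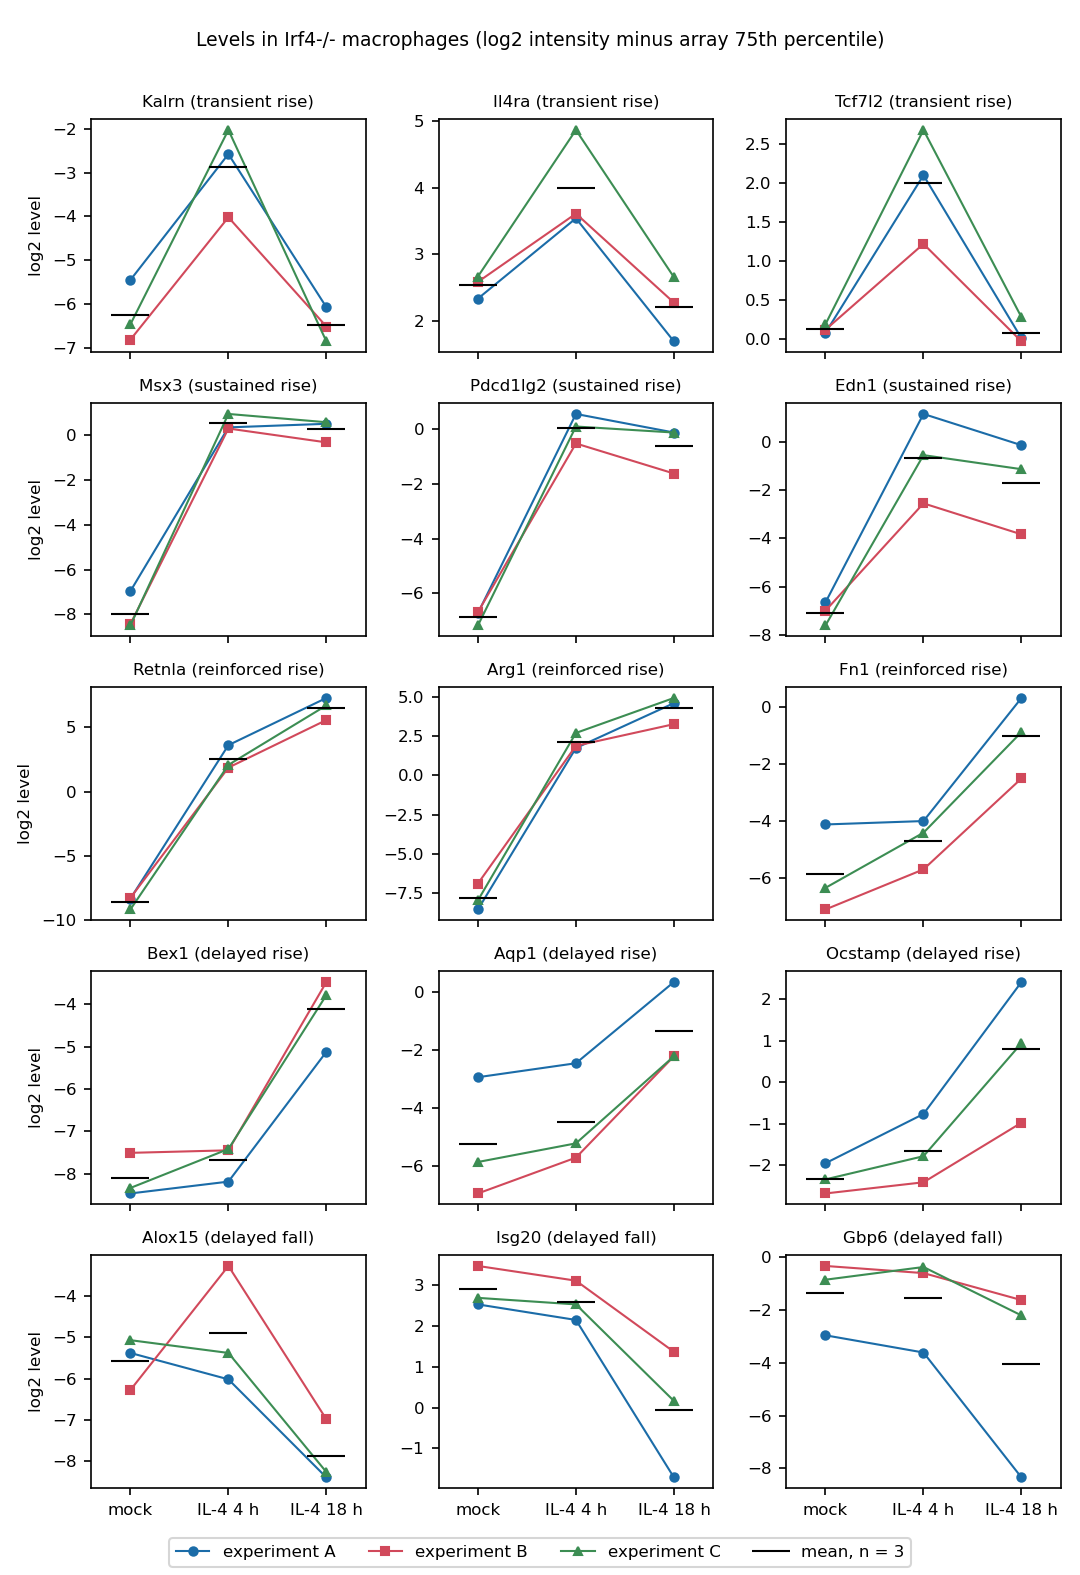
Level (y axis, log2 intensity minus the 75th percentile of the array) of 15 genes in the mock, 4 h and 18 h arrays of Irf4-/- macrophages (x axis); coloured points joined by lines are experiments A, B and C and black bars the mean of 3, and the scale differs between panels. The 3 genes in each row share a class: Kalrn returns from -2.58, -4.02 and -2.03 at 4 h to the mock range at 18 h, Msx3 stays near 0, Retnla climbs at both steps, and Bex1 moves only after 4 h.

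Reinforced rises were led by Retnla, whose protein RELM alpha is secreted by alternatively activated macrophages. Its level was -8.35, -8.29 and -9.19 in mock, 3.62, 1.87 and 2.08 at 4 h and 7.30, 5.58 and 6.72 at 18 h. No 2 conditions overlapped. The second step was 4.01 ± 0.40 (adjusted p = 2.55e-04; 4.17 on its other probe), or 16.1-fold, after a first step of at least 592-fold, and at 18 h it stood at least 9540-fold above mock. Retnla lies at chr16:48842609-48844461 of the mouse build GRCm38.p6. The 250 bases before its start and the 50 bases after it, from RefSeq (plus strand, chr16:48842359-48842658), are shown because they hold a match of the STAT6-type motif (TTC and GAA with 4 bases of any kind between them), in capitals at 145 to 136 bases before the start.
Retnla promoter: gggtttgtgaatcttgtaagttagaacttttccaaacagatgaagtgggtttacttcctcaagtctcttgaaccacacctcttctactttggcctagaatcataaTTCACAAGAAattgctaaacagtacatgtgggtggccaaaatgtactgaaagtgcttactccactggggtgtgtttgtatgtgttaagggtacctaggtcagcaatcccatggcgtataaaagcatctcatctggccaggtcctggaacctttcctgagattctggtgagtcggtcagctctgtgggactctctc
The motif was searched on both strands and reads the same on each; it occurred in 3 of 37 promoters of reinforced rises (8.11%), 16 of 194 of sustained rises (8.25%), 4 of 65 of transient rises (6.15%) and 825 of 14737 of all genes tested (5.60%). The window is short, and the promoters of Kalrn, Msx3 and Ttc24, the first genes of the transient, sustained and delayed rises, held no match of any of the 3 motifs searched, which were this one, the same with 3 bases in the middle, and the interferon response core described with the delayed falls.

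Arg1, the arginase gene, went from 1.75, 1.89 and 2.71 at 4 h to 4.61, 3.27 and 4.94 at 18 h. The times did not overlap, but the pairs ranged widely: the change was 2.15 ± 0.66 (adjusted p = 0.0421), and the call was lost in 5 of the fits that left out 1 array (4 h arrays of A, B and C, 18 h arrays of A and C), with values from 1.71 to 2.83. Fn1, encoding the matrix protein fibronectin, was at -4.01, -5.71 and -4.42 at 4 h and 0.32, -2.51 and -0.88 at 18 h. Fn1 rose by 3.69 ± 0.36 (adjusted p = 1.98e-04; 2.42 on its other probe) after a 4 h step of 1.16. On the other probe the 4 h step was 0.44, under the 2-fold limit of the class. Rbp4, the carrier of retinol in blood, rose by 3.64 ± 0.57 (adjusted p = 0.00218).

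Among further reinforced rises, the lectin gene Mgl2 rose by 1.71 ± 0.21 on top of 4.43, with 3.06, 3.46 and 3.16 at 4 h and 4.78, 4.88 and 5.14 at 18 h. Mrc1 rose by 0.44 ± 0.11 (adjusted p = 0.0165) and lost its call without the 4 h array of A or the 18 h array of B or C. The proton pump subunit gene Atp6v0d2, needed for macrophage fusion, rose by 2.15 ± 0.22 (adjusted p = 2.68e-04). Bhlhe40, a transcription factor of the circadian and immune response, rose by 1.65 ± 0.13 (adjusted p = 7.12e-05). Itgb3, the integrin beta 3 gene, rose by 1.42 ± 0.31 (0.85 on its other probe) and lost its call without the 4 h array of C. Pbp2, related to phosphatidylethanolamine-binding proteins, rose by 2.18 ± 0.45.

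Delayed rises were not called at 4 h, where their median was 0.18 from mock. Bex1 had levels of -8.19, -7.45 and -7.42 at 4 h and -5.12, -3.47 and -3.78 at 18 h, with no overlap. It was on no 4 h array well above background, so its rise was at least 4.89-fold (3.56 ± 0.49, adjusted p = 0.00109). Aqp1, a water channel gene, went from -2.46, -5.70 and -5.21 to 0.33, -2.22 and -2.22, and 18 h in B and C lay just above 4 h in A. Each pair rose, and the change was 3.09 ± 0.42 (adjusted p = 0.00102). Ttc24 had the largest fitted rise (4.45 ± 0.60, adjusted p = 0.00193; at least 5.97-fold), but its 18 h spot of A carried an outlier flag and the fit dropped it, so that value rests on B and C.

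Other delayed rises had known roles in macrophages. F3, encoding tissue factor, rose by 3.02 ± 0.62 and lost its call without the 4 h array of C. Ocstamp, a fusion gene of osteoclasts and giant cells, went from -0.77, -2.42 and -1.79 to 2.42, -0.98 and 0.94, a rise of 2.45 ± 0.53 (adjusted p = 0.00979) that lost its call without the 4 h array of C or the 18 h array of A. Itgax, the CD11c integrin gene, was nearly equal among experiments: 2.33, 2.88 and 2.04 at 4 h and 4.38, 4.37 and 4.26 at 18 h. It rose by 1.92 ± 0.17 (adjusted p = 1.17e-04), and by 0.82 on its other probe. Pparg, the fatty acid-sensing nuclear receptor, rose by 0.94 ± 0.17 (adjusted p = 0.00416), and Cd74, the chaperone of MHC class II, by 0.95 ± 0.15 (adjusted p = 0.00208). Galnt9, a glycosyltransferase gene, rose by 2.78 ± 0.28 and the noncoding 4833415N18Rik at least 5.10-fold.

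Some large rises met no class. The eosinophil-associated ribonuclease genes Ear1 (4.01 ± 0.54), Ear10 (3.85 ± 0.61), Ear3 (3.62 ± 0.59) and Ear6 (3.48 ± 0.70) rose together after 4 h values of 1.00 to 1.49 that were not called. These genes are near-identical copies whose probes may read each other, so they count as 1 observation. For Ear1 the levels were -4.03, -7.10 and -5.60 at 4 h and 0.53, -2.89 and -2.34 at 18 h, with A above B and C throughout and every 18 h array above every 4 h array. Chil3, encoding the chitinase-like protein Ym1, rose by 1.93 ± 0.43 (adjusted p = 0.0117) and lost its call without the C array of either time. Fabp4, a fatty acid-binding protein gene and target of PPAR gamma, was -0.90 from mock at 4 h, not called, and then rose by 1.88 ± 0.33 (adjusted p = 0.00375). Timd4, a phosphatidylserine receptor gene, rose at least 3.19-fold (3.14 ± 0.93, adjusted p = 0.0379), yet its mock array of A (-2.85) stood far from those of B and C (-6.89 and -7.53). Its change ranged from 1.69 to 4.39 with single arrays left out, and its call was lost without the A or C array of either time.

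Transient falls were led by Fzd1, a Wnt receptor gene. Its level was -3.65, -5.09 and -5.10 in mock, -5.66, -6.32 and -6.67 at 4 h and -2.06, -3.00 and -2.52 at 18 h, with all 18 h arrays above all mock arrays. It fell by 1.60 ± 0.26 at 4 h, rose by 3.69 from 4 h to 18 h (adjusted p = 4.80e-05) and ended 2.08 above mock (adjusted p = 2.39e-04). The prokineticin receptor gene Prokr1 fell by 1.79 at 4 h, rose by 2.56 ± 0.26 and ended 0.77 above mock (adjusted p = 0.0420). Spsb4, an adaptor of ubiquitin ligases, rose by 2.55 ± 0.28 and ended at 0.73 from mock, which was not called. The potassium channel gene Kcnj2 rose by 2.03 ± 0.28 to -0.35 of mock. The phosphatase gene Dusp1 (1.43 ± 0.24) and the orphan nuclear receptor gene Nr4a1 (1.18 ± 0.22), both quickly induced by stimuli, also rose back.

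Partly reversed falls included Fos, a subunit of AP-1. Its level was 2.18, 1.22 and 1.40 in mock, -1.58, -0.92 and -1.19 at 4 h and 0.20, 0.65 and 1.07 at 18 h, with no overlap between any of the 3 conditions. It rose from 4 h to 18 h by 1.87 ± 0.32 (adjusted p = 0.00321). Phlpp1, a phosphatase of AKT, rose by 1.74 ± 0.11 (adjusted p = 4.26e-05), and Pik3cb, a PI3 kinase subunit gene, by 1.41 ± 0.17. Slc40a1, encoding the iron exporter ferroportin, rose by 1.20 ± 0.24 (adjusted p = 0.00703) after a fall of 2.68. Lama3 rose by 1.61 ± 0.25 on the probe used and 0.07 on its other probe, after 4 h changes from mock of -2.48 and 0.23.

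Sustained falls were led by Cxcl1, Cxcl2, Tlr2, Txk, Cyp2s1 and Tal2. Txk (-0.43), Cyp2s1 (-0.18) and Tal2 (0.44) were not called between 4 h and 18 h. The other leading genes belong to the response to microbes, and the share of such genes in the class was not counted. Tlr2, a receptor for bacterial lipoproteins, was at 4.15, 4.35 and 4.38 in mock, 1.20, 1.79 and 1.63 at 4 h and 0.72, 2.18 and 1.31 at 18 h. The IL-4 arrays of both times overlapped and differed by -0.13 ± 0.23 (adjusted p = 0.734). The neutrophil chemokine genes Cxcl1 (-3.75 and -2.91 from mock) and Cxcl2 (-3.56 and -2.84) were also low at both times, with differences of 0.84 ± 0.58 and 0.73 ± 0.48 that were not called.

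Reinforced falls continued downward after 4 h. Dscam, an adhesion molecule gene known from neurons, had levels of -2.68, -1.87 and -2.04 in mock, -3.63, -3.11 and -3.12 at 4 h and -6.63, -5.72 and -6.94 at 18 h. No conditions overlapped, and the fall from 4 h was 3.14 ± 0.20 (adjusted p = 4.26e-05), 8.83-fold. Ppm1n fell at least 2.87-fold (-3.13 ± 0.35). Acod1, whose enzyme makes itaconate, fell by 2.11 ± 0.38 (adjusted p = 0.00440), from 2.03, 1.73 and 2.01 to -1.16, 0.62 and 0.00. The medium-chain fatty acid receptor gene Gpr84 fell by 1.76 ± 0.13 (adjusted p = 5.12e-05), the membrane protease gene Mmp14 by 1.83 ± 0.28 and the NADPH oxidase gene Nox1 by 2.22 ± 0.34, which normexp background correction turned to 0.01. Fpr2, a formyl peptide receptor gene, fell by 1.37 ± 0.12, but its other probe gave 0.14.

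Delayed falls were led by Alox15, the arachidonate 15-lipoxygenase gene, at -6.02, -3.27 and -5.38 at 4 h and -8.40, -6.99 and -8.27 at 18 h. It was on no 18 h array well above background, and fell at least 3.20-fold (-3.00 ± 0.58, adjusted p = 0.00578). Asb2, an adaptor of ubiquitin ligases, fell by 2.63 ± 0.26 (adjusted p = 2.17e-04), from -2.04, -1.20 and -1.67 to -4.74, -4.42 and -3.64. The cyclin gene Ccnd2 fell by 1.69 ± 0.25 and Aif1, the macrophage marker IBA1, by 1.08 ± 0.10 (adjusted p = 1.98e-04). Marco, a scavenger receptor gene, fell by 1.34 ± 0.33 and lost its call without the A array of either time or the 4 h array of C. Of the 110 delayed falls, 22 were on the list of interferon-stimulated genes.

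Interferon-stimulated genes fell as a group between 4 h and 18 h. Of 43 measured members of the list, 33 were called lower and none higher, against 8.58% and 11.9% of all genes, all 43 lay below 0, and the list's median was -1.28 against 0.053. At 4 h 2 members were called lower than mock and none higher (median -0.13 from mock), against 15.1% and 20.1% of all genes. At 18 h 38 were called lower than mock (median -1.39 from mock), against 12.1% of all genes. The fall differed in size between experiments: the list's median was -2.01 in A, -0.65 in B and -0.97 in C. Without the 18 h array of A the median was -0.781 and 9 members were called. Without the 4 h array of A 4 members were called, without that of C 6, and without the pairing 1.

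Single genes showed the same order of experiments. Isg20, an exonuclease gene, was at 2.14, 3.10 and 2.52 at 4 h and -1.71, 1.36 and 0.16 at 18 h, a fall of 2.65 ± 0.43 (adjusted p = 0.00248) with no overlap. Isg15, encoding a ubiquitin-like protein, went from 3.71, 4.61 and 3.92 to 0.63, 3.42 and 2.44, a fall of 1.92 ± 0.48 (adjusted p = 0.0190). Cxcl10, a chemokine for activated T cells, had fallen by 2.32 from mock at 4 h and fell by a further 1.96 ± 0.55 (adjusted p = 0.0300). Ifit3, which restrains viral RNA, fell by 2.38 ± 0.70 (adjusted p = 0.0358) and Ifi44 by 2.03 ± 0.53. Calls were lost without the A array of either time or the 4 h array of C for Ifi44, and for Cxcl10 and Ifit3 also without the 18 h array of C. Of interferon-inducible genes outside the list, the chemokine gene Cxcl9 fell by 2.26 ± 0.30 (adjusted p = 9.60e-04). The guanylate-binding protein gene Gbp6 fell by 2.52 ± 0.74, from -3.62, -0.62 and -0.39 to -8.34, -1.64 and -2.22, and by 1.30 without the 18 h array of A; its call was lost there and without any 1 of the 4 h arrays. For Ly6a, which encodes SCA-1, the fall of 2.28 ± 0.71 lost its call in 8 of the 9 fits that left out 1 Irf4-/- array.

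**Figure D3:**
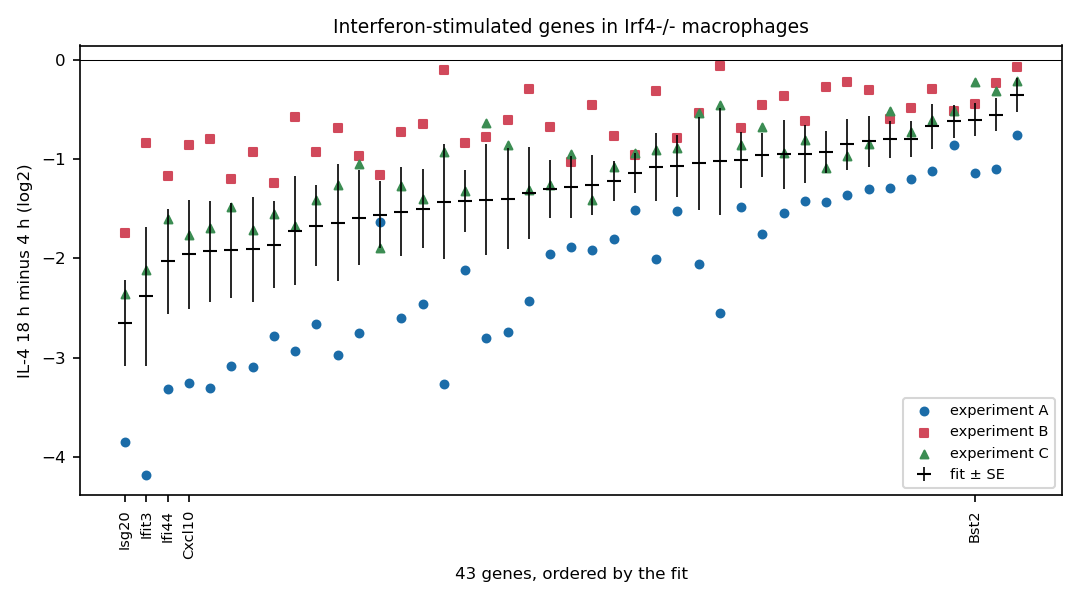
Change from 4 h to 18 h of IL-4 (y axis, log2) of the 43 measured interferon-stimulated genes (x axis, ordered by the fit, with some genes labelled) in Irf4-/- macrophages; coloured points are experiments A, B and C, and black marks the fit ± SE. All points lie below 0, and experiment A lies lowest for most genes.

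The promoters of delayed falls held the core of the interferon-stimulated response element (GAAA and GAAA with 2 bases of any kind between them, on either strand) in 24 of 110 windows (21.8%), against 458 of 14737 (3.11%) for all genes tested. By gene, this was 22 of 83 delayed falls with a promoter in the table (26.5%) against 440 of 11692 tested genes (3.76%). Of those 22 genes, 9 are on the interferon list, in which 20 of 32 genes with a promoter had a match (62.5%). These shares describe letters in a short window and are not a test. The first 2 delayed falls with a match, chosen after their values were seen, show the motif close to the start (RefSeq, GRCm38.p6, minus strand, written 5′ to 3′ along the gene). Capitals mark matches on either strand, which may overlap: that core in both genes and, in Tgtp1, also TTC and GAA with 3 bases between them at 88 to 80 bases before the start. The windows are chr11:48992197-48992496 for Tgtp1, a GTPase gene with a near-identical neighbour, and chr4:156200769-156201068 for Isg15, with matches from 78 to 57 bases before the start.
Tgtp1 promoter: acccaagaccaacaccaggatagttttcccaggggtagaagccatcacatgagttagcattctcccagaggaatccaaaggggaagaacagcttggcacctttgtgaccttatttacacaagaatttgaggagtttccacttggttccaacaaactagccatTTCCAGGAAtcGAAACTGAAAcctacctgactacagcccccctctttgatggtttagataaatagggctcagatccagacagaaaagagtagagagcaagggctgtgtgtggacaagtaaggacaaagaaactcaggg
Isg15 promoter: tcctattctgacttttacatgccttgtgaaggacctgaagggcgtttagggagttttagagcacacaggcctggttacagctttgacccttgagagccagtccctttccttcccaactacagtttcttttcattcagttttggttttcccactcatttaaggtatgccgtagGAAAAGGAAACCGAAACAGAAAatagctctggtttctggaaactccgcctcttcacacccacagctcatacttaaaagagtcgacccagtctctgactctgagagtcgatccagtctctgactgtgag
Tgtp1 went from 2.17, 4.04 and 4.12 at 4 h to -1.03, 3.11 and 2.28 at 18 h and fell by 1.99 ± 0.49 (adjusted p = 0.0171).

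Ribosome biogenesis genes and Myc targets also fell together. Of 28 measured, 26 were called lower at 18 h than at 4 h and none higher, against 8.58% and 11.9% of all genes. The median was -0.63, against 0.053 over all genes, and all 28 lay below 0. At 4 h 27 of them had been called above mock (median 0.82), against 20.1% of all genes. At 18 h 9 were called above mock (median 0.23), against 24.6% of all genes (median 0.118). Rrp12, an assembly factor of ribosomal subunits, went from -1.15, -1.43 and -1.24 to -2.25, -2.70 and -2.45, a fall of 1.19 ± 0.10 (adjusted p = 1.05e-04) with no overlap. Dkc1, the pseudouridine synthase dyskerin, fell by 1.09 ± 0.13, Nolc1 by 0.96 ± 0.15 and the helicase gene Ddx21 by 0.88 ± 0.13. The Myc probe itself gave -0.31 ± 0.20 (adjusted p = 0.293), after a rise of 1.28 at 4 h. Single arrays left out gave 15 to 26 calls among the 28, the lowest count being without the 4 h array of A, and without the pairing there was no call. Srm, which makes spermidine and is a Myc target outside this list, fell by 1.20 ± 0.12 (adjusted p = 2.72e-04).

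DNA replication genes moved the other way in smaller steps. All 39 had a positive change, 12 were called higher and none lower, against 11.9% and 8.58% of all genes, and the median was 0.32. At 4 h 29 of the 39 were called below mock (15.1% of all genes were), and at 18 h 4 were (12.1% of all genes). Pcna, the polymerase clamp, rose by 0.75 ± 0.12 (adjusted p = 0.00259), from 5.97, 4.94 and 5.40 to 6.59, 5.70 and 6.28. The origin licensing gene Cdt1 rose by 0.85 ± 0.17, the chromatin assembly gene Chaf1b by 0.87 ± 0.18 and Cdc6 by 0.71 ± 0.18. The Cdc6 call was lost without the A array of either time, the 4 h array of C or the 18 h array of B. The median of 30 mitosis genes was -0.09, with 8 above 0 and 22 below, and turned to 0.129 without the 18 h array of C. Single arrays left out gave 5 to 12 calls among the 39 replication genes, with 5 without the 4 h array of C or the 18 h array of A or B and 6 without the 4 h array of A or B.

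Some genes of lipid handling and of lysosomes rose. Of 25 genes of lipid uptake and fatty acid oxidation, 10 were called higher and none lower (median 0.33), against 11.9% and 8.58% of all genes. These shares also stand behind the counts of the lists that follow, but only for the fit with every array. Besides Fabp4 and Pparg, Nr1h3, the LXR alpha gene, rose by 0.88 ± 0.14 and Plin2, a lipid droplet coat gene, by 0.71 ± 0.14. Of 29 lysosome genes, 10 were called higher and none lower (median 0.23), but 5 were higher without the 4 h array of C and 6 without the 18 h array of B. The cathepsin gene Ctsk rose by 1.34 ± 0.14 (adjusted p = 2.75e-04), Tfeb, a transcription factor of lysosomal genes, by 0.81 ± 0.12, and Psap, encoding prosaposin, by 0.65 ± 0.11. Gla, encoding alpha-galactosidase, rose by 0.60 ± 0.11 on the probe used and was at 0.00 on its other probe.

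Among adhesion, matrix and fusion genes there were calls both ways. Of 26 integrin, matrix and protease genes, 12 were called higher and 3 lower (median 0.51), against 11.9% and 8.58% of all genes. The falls were Mmp14 and the collagen IV genes Col4a2 (-1.55 ± 0.13) and Col4a1 (-0.48). Of 22 fusion and osteoclast genes, 9 were called higher and 3 lower (median 0.27), but 4 were higher without the 4 h array of C, and 1 was lower without the 4 h array of A or C. Cdh1 was among the 3 that fell, with the integrin gene Itgav (-0.56) and Cd47 (-0.42), which encodes the ligand of SIRP alpha.

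Signalling and surface genes of the IL-4 and T cell interface also moved both ways. Of 25 genes of the receptor, JAK-STAT and feedback list, 8 were called lower and 3 higher (median -0.13), against 8.58% and 11.9% of all genes. Without the 4 h array of C or the 18 h array of A 3 were lower, without the 4 h array of A 4, and without the 18 h array of B 5. The falls included Il4ra, Socs1, Socs2, Socs5, Il13ra1 (-0.70), Jak3 (-0.51) and Jak2 (-0.46). Socs6 (0.71), Jak1 (0.41) and Stat6 rose. The Stat6 rise was 0.51 ± 0.08 (adjusted p = 0.00280) after a 4 h value of -0.57, and Socs3 was at 0.07 ± 0.32 (adjusted p = 0.901). Of 18 costimulation genes, 5 were called lower and none higher (median -0.40): Tnfsf14, encoding LIGHT (-1.61 ± 0.12), Cd40, Cd244a (-1.11 ± 0.23), Cd86 (-1.07 ± 0.16) and Icosl (-0.48). Of 12 genes of MHC class II presentation, Cd74, H2-Aa (0.45 ± 0.12) and H2-Ab1 (0.42 ± 0.08) were called higher and H2-Oa (-0.84 ± 0.13) lower, and 6 were higher without the 18 h array of A. H2-Aa lost its call without any 1 of the 4 h arrays or without the 18 h array of B or C, and the class II transactivator gene Ciita was at -0.07 ± 0.17 (adjusted p = 0.804).

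The IL-4 signature as a whole had no common direction after 4 h. Of 36 genes, 12 were called higher and 4 lower, against 11.9% and 8.58% of all genes. Without the 4 h array of C 6 were higher, without the 18 h array of C 7, and 2 were lower without the 4 h array of B or C or the 18 h array of B. The median of 0.01 turned negative with median scaling (-0.02). Against mock it was 2.37 at 4 h and 2.86 at 18 h. Of 24 immediate early and heat shock genes, 7 were called higher and 1 lower (median 0.35), led by Fos and Dusp1, and 4 were higher without the 4 h array of A or the 18 h array of C. Of 19 genes of the NRF2 response to oxidants, 7 were called higher and 1 lower, with heme oxygenase Hmox1 rising by 1.42 ± 0.14 (adjusted p = 2.72e-04), and 4 were higher without the 4 h array of C or the 18 h array of B. Of 18 inflammatory cytokine and chemokine genes, 5 were called lower, with the interferon-stimulated Cxcl9, Cxcl10 and Cxcl11 and with Il10 and Ccl5, and 3 higher, Il1b (0.75), Ccl3 (0.83) and Ccl9 (0.87). Of these 18, 2 were lower without the 4 h array of A, 3 without the 4 h array of C or the 18 h array of A or C, and 1 was higher without the 4 h array of C or the 18 h array of B or C. Of 20 arginine and polyamine genes, 6 were called lower and Arg1 higher, and 3 were lower without any 1 of the IL-4 arrays.

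**Figure D4:**
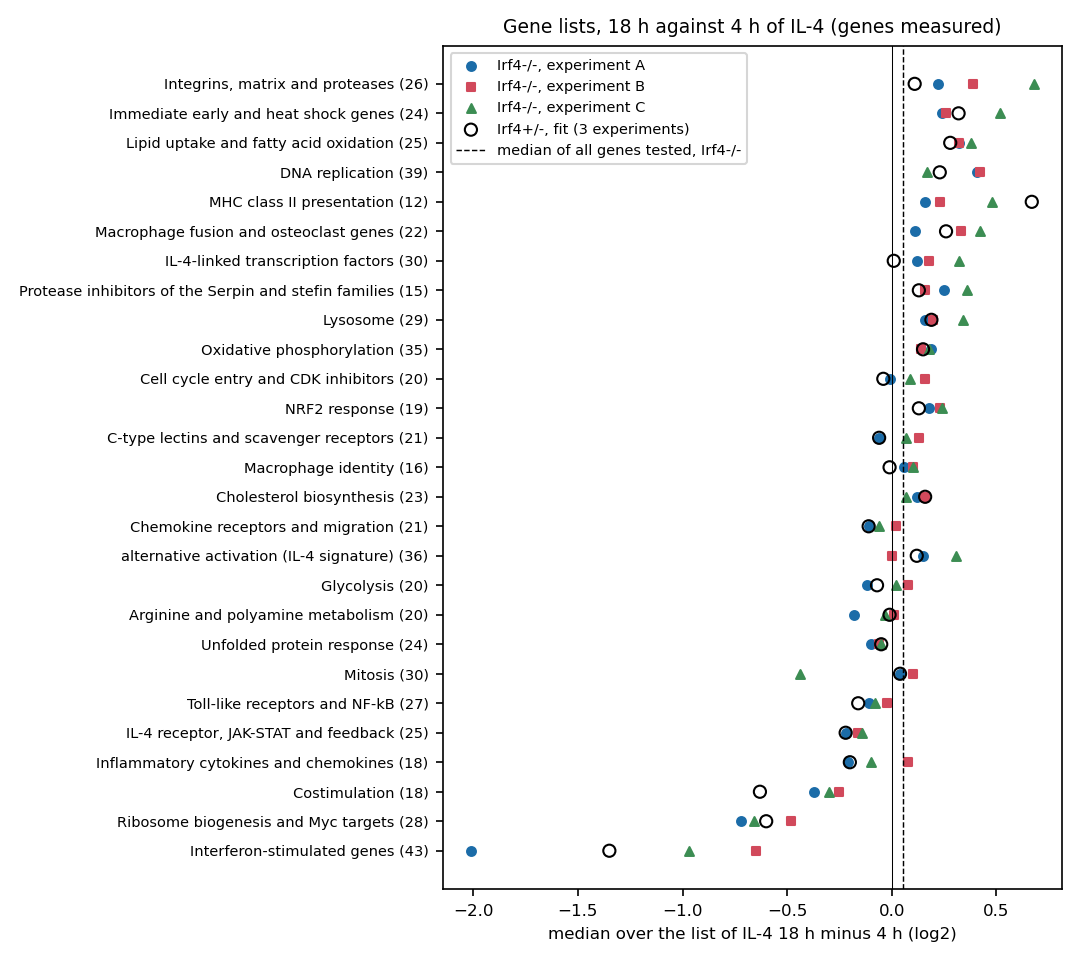
Median change from 4 h to 18 h of IL-4 (x axis, log2) over the measured genes of each list (y axis, number of genes in brackets); coloured points are experiments A, B and C in Irf4-/- cells, open circles the fit in Irf4+/- cells, and the dashed line the median of all genes tested in Irf4-/- cells (0.053). Interferon-stimulated genes and ribosome biogenesis genes lie lowest in every experiment, at -2.01, -0.65 and -0.97 and at -0.72, -0.48 and -0.66.

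The class rule used no change measured in Irf4+/- cells, and those arrays gave their own values for the same genes. They did enter the filter and the spread shared by all 18 arrays, on which every class call rests. The shares of class members called in Irf4+/- cells are therefore partly built in, and they describe the genes without testing them. In Irf4+/- cells 1654 genes were higher at 18 h than at 4 h (10.7%) and 1848 lower (12%), together 22.7% of genes. Of the 60 transient rises, 51 (85.0%) were called lower from 4 h to 18 h there, with a median of -1.01 beside -0.98 in Irf4-/- cells. Of the 126 partly reversed rises, 112 (88.9%) were called lower, of the 36 reinforced rises 30 (83.3%) higher, and of the 94 delayed rises 81 (86.2%) higher. Of the 110 delayed falls, 95 (86.4%) were called lower, of the 82 transient falls 69 (84.1%) higher, of the 94 partly reversed falls 65 (69.1%) higher and of the 44 reinforced falls 37 (84.1%) lower. Sustained rises were split, with 17 lower and 13 higher of 215. Over all genes, 1136 were called higher in both genotypes, 61.8% of the Irf4-/- calls and 68.7% of the Irf4+/- calls, and 1073 lower in both, 81.1% and 58.1%.

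The difference of the change between genotypes was tested for 15424 genes, and limma called none (0%), with a smallest adjusted p of 0.963 and 720 genes at an unadjusted p under 0.05. A miss of the threshold does not show that the genotypes act alike. A few weakly expressed genes had unlike values in the genotypes. Alox15 changed by -3.00 ± 0.58 in Irf4-/- and 0.24 ± 0.58 in Irf4+/- cells, where its levels were -5.10, -6.83 and -5.71 at 4 h and -4.30, -7.23 and -5.38 at 18 h. The fitted difference was -3.24 ± 0.82 (adjusted p = 0.963), with no Irf4-/- array at 18 h well above background. Timd4 was well above background on the 3 Irf4-/- arrays at 18 h and on no Irf4+/- array, so its difference has no measured size. It passed the filter through Irf4-/- arrays alone, so its place here is no support for a genotype difference. Ttc24 was likewise well above background on the 3 Irf4-/- arrays at 18 h, but on 1 of the Irf4+/- arrays at 18 h and none at 4 h. Retnla, by contrast, gave 4.01 and 3.99, and Kalrn -3.60 and -4.05. For 223 genes (1.45%) all 3 experiments of a genotype moved opposite to all 3 of the other, 9 of them among the 3161 called.

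**Figure D5:**
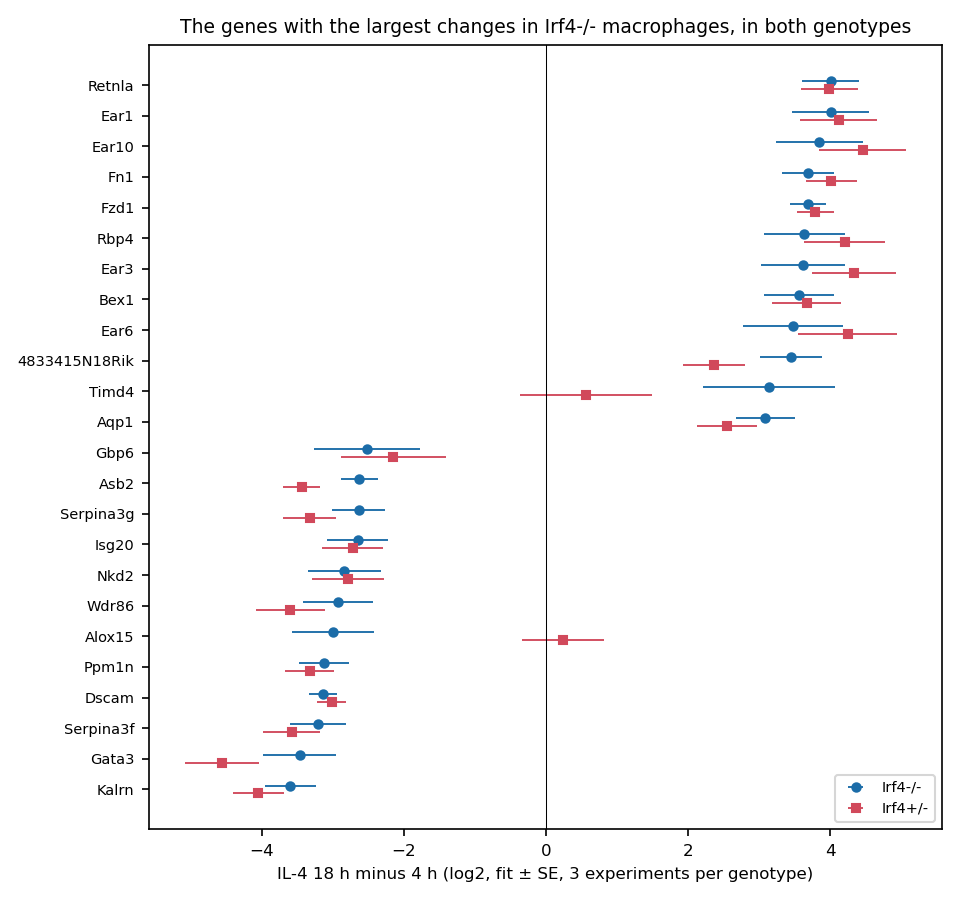
Change from 4 h to 18 h of IL-4 (x axis, log2, fit ± SE over 3 experiments) of the 12 genes with the largest rise and the 12 with the largest fall in Irf4-/- cells that moved the same way in all 3 pairs (y axis), in Irf4-/- (circles) and Irf4+/- cells (squares). In most genes both genotypes lie to the same side of 0, while Alox15 lies at -3.00 and 0.24 and Timd4, which no Irf4+/- array measured above background, at 3.14 and 0.57.

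Markers of other cells were measured beside these genes. Erythroid (4 of 8), fibroblast (7 of 10) and basophil, mast cell and eosinophil markers (8 of 12) summed to less than 1 in every group, with Fap called lower and Kit and Ccr3 called higher. T and NK cell markers (8 of 12 measured) summed to a linear level of 0.287 to 0.403 of the 75th percentile at 4 h and 0.288 to 0.475 at 18 h, with Cd2 called higher. The defining genes Cd3d and Trac did not pass the filter on low signal. Neutrophil markers (10 of 12) summed to 22.5 to 59.9 and 23.7 to 58.3 with none called. Monocyte markers (7 of 8) summed to 24.6 to 77.3 at 4 h and 16.2 to 44.3 at 18 h. Of these, Ly6c1, an interferon-inducible surface gene, fell by 1.70 ± 0.36 (-0.93 on its other probe), while Ccr2 and Nr4a1 rose. B-lineage markers (7 of 10, with Pax5 and Ebf1 below the filter) summed to 46.8 to 91.8 in mock, 45.1 to 49.1 at 4 h and 70.8 to 92.6 at 18 h, with Blnk called higher and Cd79b lower. Dendritic cell markers (10 of 12) summed to 146 to 218 and 84.2 to 169, with Bst2, which is also on the interferon list, called lower. Of the 9 fits that left out 1 Irf4-/- array, the Kit call was lost in 6, Bst2 in 5 and Ccr2 in 4. The part of the marker levels in the interferon result was not tested.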

How the data were processed

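The data were 18 one-colour Agilent arrays, 3 per group, each deposited as scanner output of Agilent Feature Extraction 9.5.1, per the file headers. Feature Extraction's processed signal, a background-corrected intensity, was used as the authors deposited it. Log2 of this intensity minus the array's 75th percentile was computed for non-control spots, outlier spots were left out, and spots of a probe were averaged. The deposited table of log2 values, made by the authors in a way not given in the sources used here, has medians of -0.18 to 0.21 per column and served as an alternative; its scaling stays unknown, and its direction followed the scanner values. Of 41174 probes, 22944 were named by RefSeq accession, 6664 by symbol, 3108 by synonym and 1884 by the file's name, and 6574 had none.

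Kept were 27514 probes that stood well above background in every array of some group, and the brightest kept probe stood for a gene, giving 15425 of 21200 named genes. limma 3.58.1 in R 4.3.3 was fitted over 18 arrays with group means and the letter within each genotype as a block (8 residual degrees of freedom), with Benjamini-Hochberg adjustment over all genes and calls at an adjusted p under 0.05. The letters were taken as pairs because the series describes independent experiments, and same-letter arrays deviated together, with correlations from 0.63 in Irf4-/- cells. Animals were pooled, so p-values do not measure the spread between animals. They measure how far changes within a letter differed between these experiments, with a spread estimated over all 18 arrays of both genotypes. "At least" folds compare the bright group with the lowest signal well above background where no array of the other group was measured. On simulated data for 18 h against 4 h with 15368 genes, 88% of changes of 1 and 96% of changes of 2 (log2) were recovered, with 2 false calls. The simulation changed 200 genes in the Irf4-/- 18 h group only and drew noise separately for each gene and array. Errors shared by the genes of an array were not simulated, so these shares may not hold for the real arrays. The number of arrays limits the precision.

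The comparison, the gene lists and the rule for named genes were chosen with earlier results of these data known. The naming rule took the 12 largest rises and 12 largest falls with the same sign in every pair and the 6 leading genes of each class. It also took up to 4 called genes of each list, up to 10 called genotype differences, and 27 IL-4 genes. Any gene that a sentence on a list turns on was named too. The rule gave 162 genes, and not all of them are described. Other genes named were chosen after their values were seen. Promoters (RefSeq, GRCm38.p6) were looked up for the first gene of the classes of rises and printed where a motif was found. Alternatives changed the block, background correction, scaling, filter and arrays used.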

Additional observations from a re-analysis of the deposited data

How the results depend on the processing

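The counts of calls depended most on the pairing and on the background correction. Without the replicate block, 51 genes were higher and 37 lower, with 12 transient rises, 16 delayed rises, 10 transient falls, 56 sustained falls and 8 delayed falls. With 1 block per letter over both genotypes the counts were 725 and 567, with the 9 Irf4-/- arrays alone and the block 1075 and 777, and with the 6 IL-4 arrays alone and the block 580 and 416. With normexp there were 89 higher and 91 lower, 26 transient, 108 sustained and 20 delayed rises, and 18 transient, 41 sustained and 17 delayed falls. Normexp turned the sign of 99 of the 3161 called genes, among named genes that of Fap (to 0.14) and Nox1 (to 0.01). Leaving out spots far below the local background before normexp, an alternative chosen after seeing the data, gave 131 sustained rises, 55 delayed rises, 41 transient falls and 89 sustained falls. Median scaling (48.5% rises among calls), quantile normalization (52.4%), the authors' table and the slide as a random block kept 2585, 2886, 3105 and 2980 of the 3161 calls. With single arrays left out, calls ranged from 864 to 1866 higher and 603 to 1346 lower, transient rises from 41 to 82, sustained rises from 161 to 256, delayed rises from 74 to 106, transient falls from 52 to 113, sustained falls from 137 to 194 and delayed falls from 62 to 132. The 4 h arrays of A and C and the 18 h arrays of A, B and C each moved a count of calls by over 1.5 times, and the 4 h arrays of A and C and the 18 h array of A did so for delayed falls. Of 143 called genes that the naming rule gave, 100 kept their call in every fit that left out 1 array. Without the replicate block 24 of the 143 kept it. Normexp lost the call of 113 of them without a turn of sign, with Retnla, Kalrn, Gata3, Fn1 and Bex1 among these. The causes were not tested. The genotype difference had 0 calls in each fit that gave it. Genes below background at a time have only a bound.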
